A study of Mus musculus with 12 samples.

Results

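miR-139-5p and miR-139-3p are the 5′ and 3′ strands, or arms, of the miR-139 hairpin. They were chosen by name, because both were known from these data to rise towards granulocytes, and they are 2 of the 593 numbered assays of the CT table and 2 of the 269 assays to which a name could be given. The cells came from bone marrow of C57BL/6 mice and were separated by flow cytometry into 4 stages of neutrophil granulocyte formation. LSK cells, the hemopoietic stem and progenitor population, lack lineage markers and carry Sca1 and cKit. Promyelocytes, myelocytes and granulocytes, which follow in order of maturation, were sorted by their staining for Gr-1, cKit, CD34 and CD16/32 after cells with lineage markers were excluded. Whole cell, cytoplasmic and nuclear RNA of each stage was profiled on TaqMan low-density array (TLDA) cards, which gives 12 samples with 1 sample per stage and fraction and 100 ng of RNA in each. All cells were untreated, and the sources used here do not state how many mice contributed to a sample.

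A miRNA hairpin is cut by Dicer into a short duplex, and one of its strands is usually retained by an Argonaute protein while the other is degraded. The retained strand pairs through its seed, the bases near its 5′ end, with sites in messenger RNAs and lowers their translation and stability. miR-139-5p is the arm of this hairpin that is most often reported, and it is known as a restraint on growth in several cancers. Granulocyte formation is known for a steep rise of miR-223, which was therefore used beside the miR-139 arms.

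The mature sequences, taken from RefSeq on mouse build GRCm38.p6, are shown because the 2 arms are read by separate assays and carry unrelated seeds. Capitals mark the seed, bases 2 to 8 from the 5′ end.
miR-139-5p: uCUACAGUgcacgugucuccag
miR-139-3p: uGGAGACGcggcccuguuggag

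miR-139-5p lies at chr7:101475382-101475403 and miR-139-3p at chr7:101475418-101475439, both on the plus strand and each 22 bases long. They are separated by 14 bases within the 68-base Mir139 hairpin. The hairpin falls within the bounds of Pde2a, a phosphodiesterase gene on the same strand, and the exons and introns of that gene were not used here. Folding of the hairpin with RNAfold gave a minimum free energy of -35.6 kcal/mol with 19 base pairs between the arms, which included 6 of the 7 seed bases of miR-139-5p and all 7 of miR-139-3p. Neither seed was shared with any other of the 1679 mature mouse miRNA names in the table, so that neither arm has a seed family among them. The G and C content was 54.5% in miR-139-5p and 68.2% in miR-139-3p.

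The CT counts the PCR cycles needed before an assay's product is detected. More template gives a lower CT, and 1 cycle is a 2-fold difference at full efficiency. An undetermined well is listed at 40, and a CT under 30 was taken as the range of reliable readings. miR-139-5p had whole cell CT values of 28.4, 27.4, 22.6 and 21.2, in the order LSK, promyelocytes, myelocytes and granulocytes. In the cytoplasm it had 27.1, 27.96, 22.5 and 21.7 in the same order, and in the nucleus 32.1, 31.1, 26.8 and 24.5. In each of the 3 fractions the myelocyte and granulocyte samples lay at least 4 cycles below both earlier stages, and the early and late stages did not overlap. The gap between LSK and promyelocytes was about 1 cycle in each fraction and differed in direction between them.

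miR-139-3p was undetermined in LSK and in promyelocytes in all 3 fractions. Its whole cell CT was 31.3 in myelocytes and 28.9 in granulocytes. Its cytoplasmic CT was 29.6 in myelocytes and 29.6 in granulocytes, and its nuclear wells were undetermined in all 4 stages. The arm was therefore read in 4 of the 12 samples, which are the whole cell and cytoplasmic samples of the 2 most mature stages, and the myelocyte whole cell reading lay above the limit of 30.

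**Figure D1:**
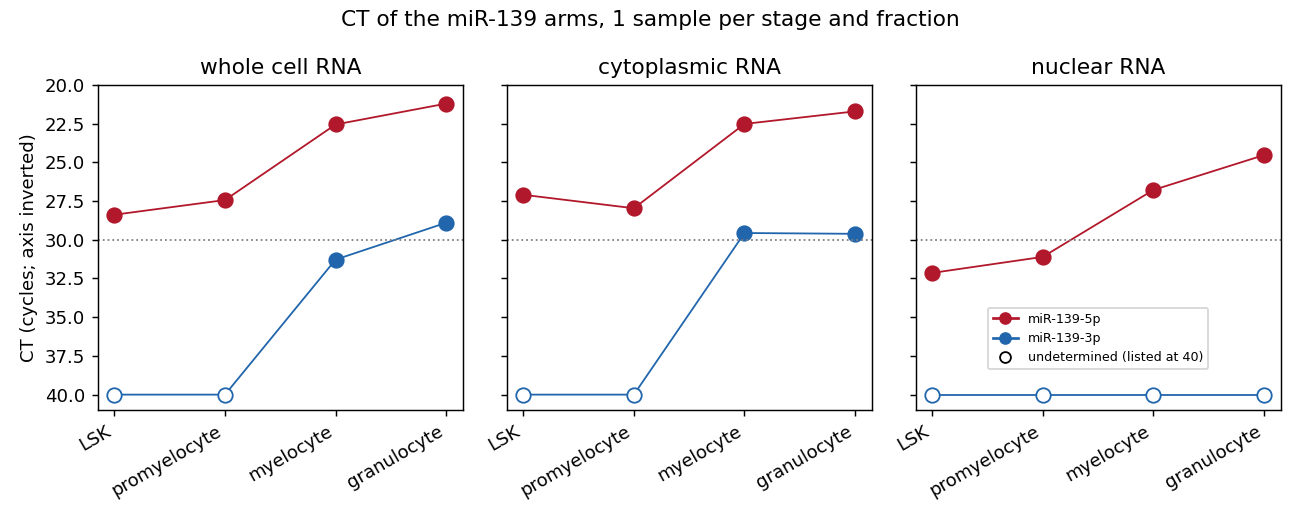
CT in cycles of miR-139-5p (red) and miR-139-3p (blue) by stage in whole cell, cytoplasmic and nuclear RNA, with 1 sample per point, the axis inverted, open circles for undetermined wells listed at 40 and a dotted line at a CT of 30. miR-139-5p moved from 27.4 to 22.6 between promyelocytes and myelocytes in whole cell RNA, and miR-139-3p was read in 4 samples only.

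Ordered by CT among the named assays read in a sample, miR-139-5p stood at place 57 of 201 in LSK and 52 of 203 in promyelocytes, and at place 9 of 211 in myelocytes and 7 of 220 in granulocytes in whole cell RNA. Cytoplasmic RNA gave places 58 of 233, 47 of 207, 9 of 205 and 6 of 214. Nuclear RNA gave places 72 of 161, 57 of 170, 12 of 159 and 8 of 179. In all fractions the arm thus moved to an earlier place, among the first 12 by CT, at the myelocyte stage. miR-139-3p stood at place 131 of 211 in myelocytes and 92 of 220 in granulocytes in whole cell RNA, and at 100 of 205 and 97 of 214 in the cytoplasm. A place in this order also depends on the efficiency of each assay and is not an order of molecule numbers.

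The whole cell differences below were corrected by the change in mean CT of the last 3 assays of the table, and cytoplasmic and nuclear differences are of the CT as deposited. The correction took 0.43 from each whole cell log2 difference between granulocytes and promyelocytes. Whole cell miR-139-5p was 4.89 higher on the log2 scale in myelocytes than in promyelocytes, a 29.6-fold rise, and a further 0.91 higher in granulocytes. The difference between promyelocytes and LSK was 0.70. Of the total log2 difference of 6.50 between LSK and granulocytes, 75.2% fell at the step from promyelocytes to myelocytes. For miR-223, the share of its total of 6.87 at that step was 31.5%, and its largest step, 4.25, came earlier, from LSK to promyelocytes. In the cytoplasm, unscaled, the total of miR-223 was 4.96 and its steps were 1.44, 2.79 and 0.73, the largest being the one to myelocytes. Which of its cytoplasmic steps is largest depends on the scale, which shifts all assays alike. With the last 3 assays as the scale, the cytoplasmic step of miR-139-5p to promyelocytes moved from -0.87 to 0.98. Its step to myelocytes moved from 5.45 to 3.77. The whole cell share of miR-139-5p at the step to myelocytes was equalled or passed by some other granulocyte-linked miRNAs with smaller totals, such as miR-15a with 94.1%, miR-26b with 90.6% and miR-15b with 79.2%. The label of a rise in granulocytes therefore describes the end point, since most of the difference in miR-139-5p was already present in myelocytes.

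For comparison, 129 named assays came up before cycle 30 in 1 or more of the whole cell samples. Of these, 55 were 2-fold or more higher in myelocytes than in promyelocytes, which is 42.6%, and 13 were so in granulocytes against myelocytes, which is 10.1%. Both arms rose by 2-fold or more at the first of these steps, and miR-139-3p alone of the pair at the second, although without scaling miR-139-5p also passed the limit there, with 1.35. The median log2 difference over the 129 assays was 0.75 and 0.03 at these steps. A step to myelocytes was common among assays that rose from LSK to granulocytes: of the 66 of these assays that were read in all 4 whole cell samples and rose 2-fold or more, 38 had their largest step there, 24 at promyelocytes and 4 at granulocytes. Without scaling these numbers were 39, 33 and 10 of 82. In the cytoplasm, unscaled, they were 35, 1 and 3 of 39, and this split depended on the scale. With the last 3 assays as the scale it was 8, 4 and 0 of 12, and with the mean of the named assays 23, 12 and 4 of 39. In the unscaled nucleus, where 37 assays rose, 21 had their largest step at granulocytes and 8 at each of the others. miR-139-5p was the largest at the step to myelocytes of the 124 of these 129 assays that were read in all 4 whole cell samples, with 3.92 for miR-296-5p next. miR-135a, undetermined in LSK but read at a CT of 32.6 in promyelocytes and 27.7 in myelocytes, differed by 4.88, as much as miR-139-5p. Outside the CT limit, miR-467d, read at a CT of 38.8 in promyelocytes and 34.7 in myelocytes, differed by 4.15. This order of steps was looked at after the values of the arms were known.

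The contrast of granulocytes with promyelocytes is the one that chose the arms, and its values are a description. Whole cell miR-139-5p was 5.80 higher on the log2 scale, or 55.7-fold, and cytoplasmic miR-139-5p was 6.26 higher, or 76.5-fold. For miR-139-3p the difference was at least 10.67 in whole cell RNA and at least 10.38 in the cytoplasm, taking an undetermined well as a CT of 40. In this contrast 65 of the 129 whole cell assays were 2-fold or more higher, which is 50.4%, and 29 were 2-fold or more lower, which is 22.5%. Without the correction the split was 75 higher and 16 lower, and with the mean CT of the named assays as the scale it was 49 and 39. In the cytoplasm 67 of 128 were higher, 52.3%, and 19 lower, 14.8%, with a median of 1.06 against 1.004 in whole cell RNA. The cytoplasmic split depended on the scale, with 10 higher and 91 lower when the last 3 assays were used and 42 higher and 44 lower with the mean of the named assays. miR-139-5p stayed 2.99 higher on the first of these scales and 5.15 higher on the second.

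Among the assays under a CT of 30 in at least 1 stage, few were listed with a larger difference than miR-139-5p between promyelocytes and granulocytes. Besides miR-139-3p, in whole cell RNA these were miR-466d-3p, with 14.02, and miR-33*, with 10.15. Each of these was undetermined in promyelocytes but had been read in LSK, at a CT of 27.5 for miR-466d-3p and 30.3 for miR-33*. In the cytoplasm they were miR-365 (10.61), miR-135b (8.15) and miR-34a (7.34), and of these miR-365 and miR-34a were undetermined in promyelocytes. Bounds from undetermined wells have no order among themselves, and their place relative to miR-139-5p depends on the ceiling. With undetermined wells at 35, a setting added after seeing the data, whole cell miR-33* was at 5.15 and cytoplasmic miR-365 and miR-34a at 5.61 and 2.34, below miR-139-5p, while miR-466d-3p stayed above it at 9.02. Among assays that passed the CT limit and were read in all 4 stages, miR-139-5p had the largest whole cell difference of 124, followed by miR-135b with 5.18, and the second largest cytoplasmic difference of 118. miR-135a, with its undetermined well in LSK only, differed by 5.52 in whole cell RNA, between these. With no CT limit, 16 of 248 named assays lay above miR-139-5p in whole cell RNA, miR-139-3p included, and all 16 were undetermined in promyelocytes. In the cytoplasm 14 of 254 lay above it, of which 13 were undetermined in promyelocytes and the other was miR-135b.

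**Figure D2:**
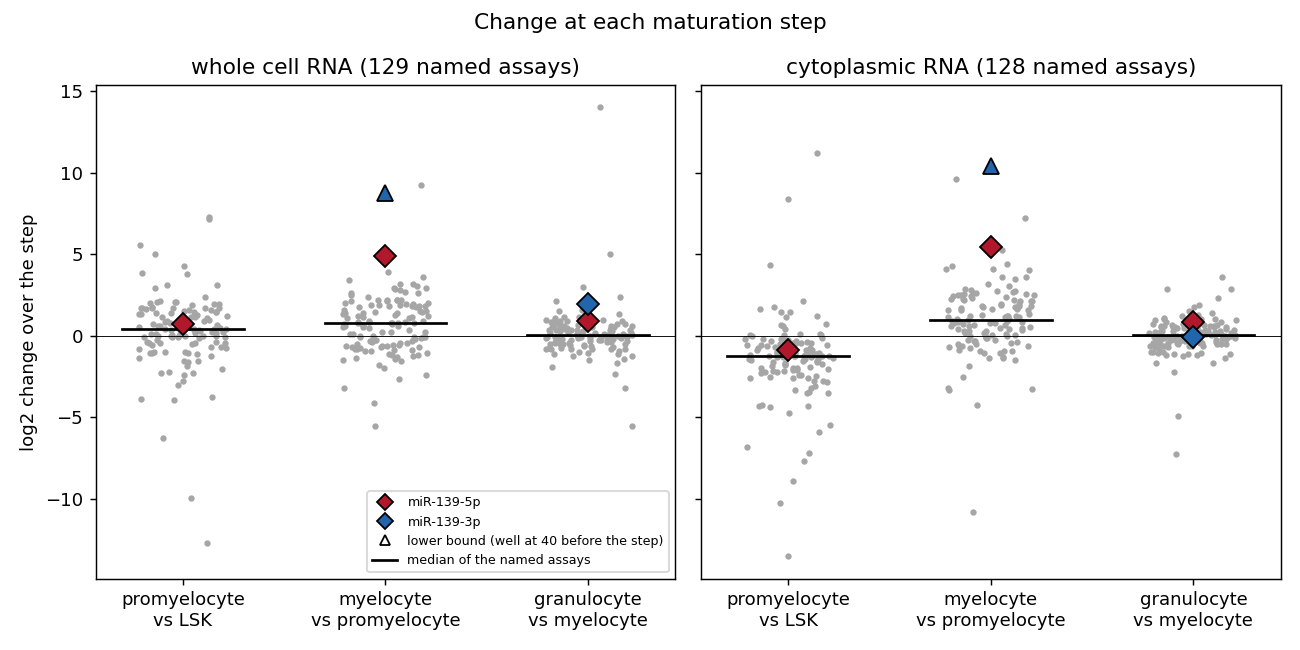
Log2 change over each maturation step in whole cell (129 assays) and cytoplasmic (128 assays) RNA, with grey points for the named assays under a CT of 30 in at least 1 stage, a bar for their median, and red and blue marks for miR-139-5p and miR-139-3p. A triangle is a lower bound from a well listed at 40, grey points include assays with such wells, and miR-139-3p is not drawn at the first step, where both wells were undetermined. The arms stand far above the median at the step to myelocytes (0.75 in whole cell RNA). At that step miR-33* (9.25) lies above both arms in whole cell RNA, and miR-365 (9.60) above miR-139-5p in the cytoplasm. Both of these were undetermined in promyelocytes of that fraction. Where drawn at the steps before and after, the arms lie within the range of the other assays.

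The cytoplasmic samples are separate RNA samples from the whole cell ones and showed the same step. The arms were chosen for a rise known from these data, so this is not independent support. The sources used here do not state whether both kinds of RNA came from the same cells. The log2 difference of cytoplasmic miR-139-5p was -0.87 for promyelocytes against LSK, 5.45 for myelocytes against promyelocytes and 0.81 for granulocytes against myelocytes. The first of these values turned to 0.98 and the last to -0.78 when the last 3 assays were used as the scale, while the step to myelocytes was 3.77. The cytoplasmic median of the 128 assays was -1.25 from LSK to promyelocytes, so that the arm lay above the median there although its CT was higher in promyelocytes. The cytoplasmic minus whole cell CT of miR-139-5p was -1.29, 0.53, -0.04 and 0.50 from LSK to granulocytes. The medians of the named assays under 30 in both samples were -1.32, 0.60, 0.12 and 0.48, and the arm lay within the middle 50% of these assays at every stage.

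miR-139-3p behaved differently between the fractions at the last step. Its whole cell value was 1.94 higher in granulocytes than in myelocytes, a 3.84-fold rise, while its unscaled cytoplasmic value differed by -0.05. On the scale of the last 3 assays, as used for whole cell RNA, the cytoplasmic value was -1.64. The myelocyte cytoplasmic CT of this arm was 1.72 cycles below its whole cell CT, and the granulocyte one 0.71 above it. Over 42 named assays within 1 cycle of its myelocyte whole cell CT, the cytoplasmic minus whole cell CT had a median of 0.24 and a range of -1.28 to 3.25, and none was as low. With 1 well per assay, the spread between wells at such CT values is not known, and its part in this difference was not tested.

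In the nucleus miR-139-5p was 1.04 higher in promyelocytes than in LSK, 4.32 higher in myelocytes than in promyelocytes and 2.25 higher in granulocytes than in myelocytes. Between promyelocytes and granulocytes it was 6.57 higher, or 95.1-fold, the second largest of the 66 named assays under a CT of 30 in at least 1 nuclear sample. Of these, 36 were 2-fold or more higher, which is 54.5%, and their median was 1.36. The nuclear rise at the last step was larger than in the other fractions, and so was the median of the 66 assays at that step, 1.34. The nuclear samples were not scaled, so that a shift of the whole nuclear sample cannot be told apart from the arm's own.

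The nuclear:cytoplasmic ratio, 2 raised to the CT difference and divided by 3, stood below 0.05 for miR-139-5p in every stage. From LSK to granulocytes it took the values 0.0101, 0.0378, 0.0173 and 0.0470. The median ratios of named assays under a nuclear CT of 30 were 0.0213, 0.0534, 0.0266 and 0.0568 in the same order, from 45, 40, 37 and 57 assays. miR-139-5p lay below the median in every stage, and the number of these assays with a lower ratio was 1, 11, 10 and 21 from LSK to granulocytes. Its own nuclear CT of 32.1 in LSK and 31.1 in promyelocytes lay outside the limit of 30 that defined the other assays.

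miR-139-3p was not read in the nucleus, and its ratio had an upper bound of 0.000240 in myelocytes and 0.000249 in granulocytes if 40 is the ceiling. With undetermined wells set to 35 the granulocyte bound was 0.00798. Assays of similar cytoplasmic CT were mostly read in the nucleus, 33 of 38 in myelocytes and 36 of 38 in granulocytes. In granulocytes the 36 had nuclear CT values from 30.8 to 35.7, and those not read, besides miR-139-3p, were miR-10b and miR-532-3p. In myelocytes the assays not read were miR-10b, miR-20a*, miR-27a*, miR-872* and miR-877*. This set of assays was defined after the nuclear values of the arm were seen.

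**Figure D3:**
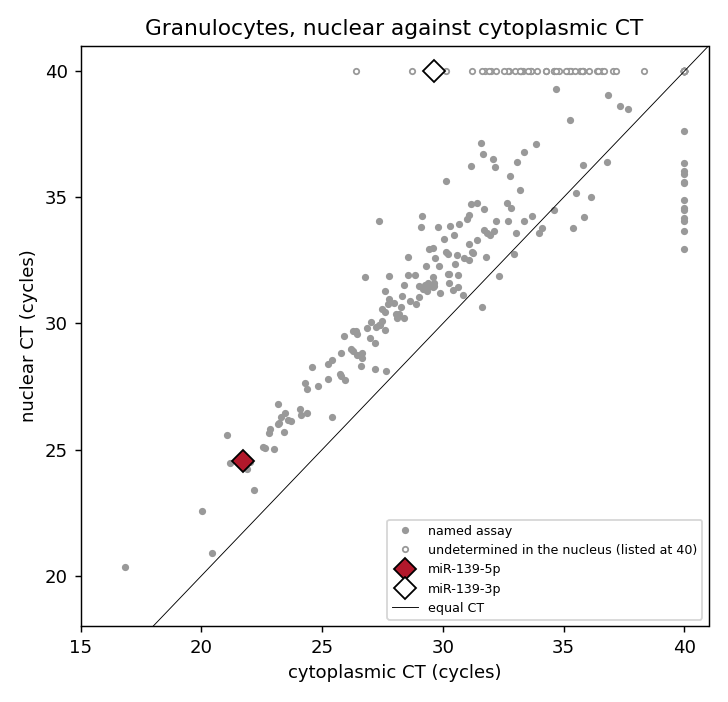
Nuclear against cytoplasmic CT in cycles in granulocytes for the named assays, 1 sample per fraction, with open points for assays undetermined in the nucleus and listed at 40, and a line of equal CT. miR-139-5p (21.7 and 24.5) lies in the main band, and miR-139-3p (29.6 and 40) lies above the assays of similar cytoplasmic CT that were read in the nucleus.

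Where both arms were read, miR-139-3p came up 7 to 9 cycles after miR-139-5p. The CT difference between them was 8.73 in whole cell myelocytes, 7.70 in whole cell granulocytes, 7.05 in cytoplasmic myelocytes and 7.91 in cytoplasmic granulocytes. In the other whole cell and cytoplasmic samples it was at least 11.6 to 12.9, and in the nucleus at least 7.86, 8.90, 13.2 and 15.5 from LSK to granulocytes. The bounds of nuclear LSK and promyelocytes lie near the measured gaps and show no wider gap there. With undetermined wells at 35, the bounds in LSK and promyelocytes were 6.62 and 7.57 in whole cell and 7.91 and 7.04 in cytoplasmic RNA, which are no wider than the measured gaps. In the nucleus at that setting they were 2.86, 3.90, 8.21 and 10.47 from LSK to granulocytes, and only the last was wider than the measured gaps. If the gap of whole cell granulocytes had held throughout, miR-139-3p would have come up at a CT of 36.1 in whole cell LSK, 35.1 in whole cell promyelocytes, 34.8 in cytoplasmic LSK and 35.7 in cytoplasmic promyelocytes. Between 40 and 64 assays were read at a CT of 34 to 37 in each of these 4 samples. That count leaves out assays of such a level that went unread, so it gives no rate of detection. Whether the arm would have been read there was not tested. In nuclear granulocytes the same gap would have put the arm at a CT of 32.2. A fixed offset between the assays cancels in such a comparison of gaps. A difference between them in amplification per cycle does not cancel when the level changes, and neither does the scatter of single wells. The part of either in these gaps was not tested.

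The arms of 22 hairpins could be compared in whole cell RNA, each with both arms named and under a CT of 30 in at least 1 stage. Arms were paired by name, and a mature miRNA that comes from more than 1 hairpin was not set apart. Between promyelocytes and granulocytes the log2 difference of miR-139-3p exceeded that of miR-139-5p by at least 4.87, with 40 as the ceiling. In the other 21 hairpins, all read in both stages, the arms differed by a median of 0.59 in size, and 20 of the 21 moved in the same direction. The arms of miR-142, a hairpin of blood cells, differed by 0.10. The widest measured gap was that of miR-135a, 5.06, with 5.52 for miR-135a and 0.47 for miR-135a*. Both arms rose by 2-fold or more in 13 of the 22 hairpins, that of miR-139 included. The size of the miR-139 gap rests on the value given to 1 undetermined well, since with 35 in place of 40 it was -0.13.

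**Figure D4:**
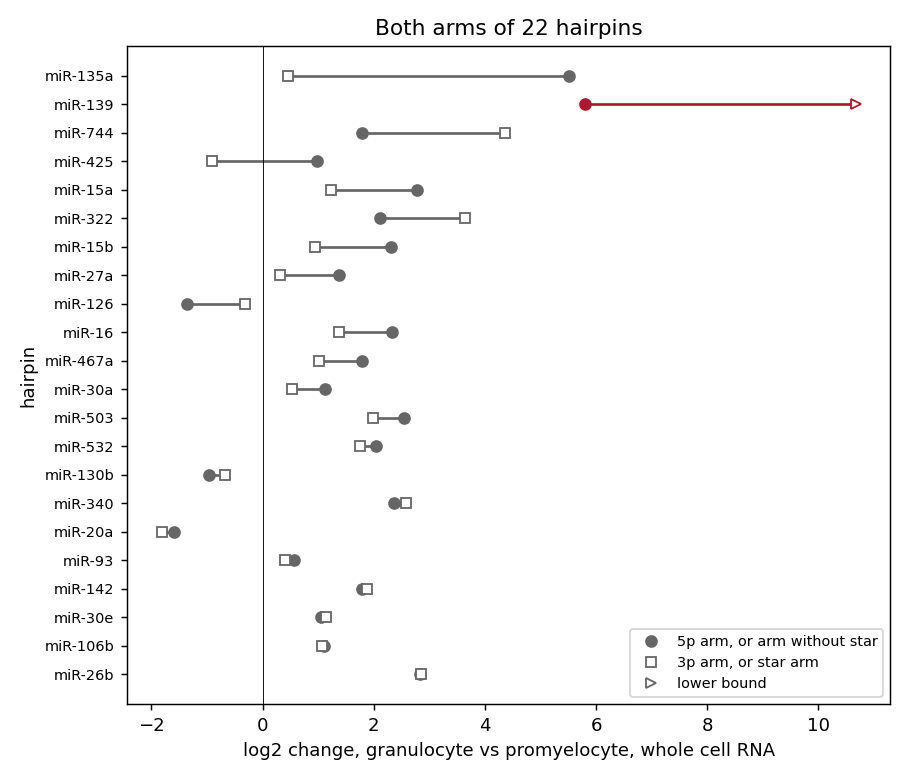
Log2 change of granulocytes against promyelocytes in whole cell RNA for both arms of 22 hairpins, paired by name, 1 sample per stage, ordered by the gap between the arms. Circles are the 5p or unstarred arm, squares the 3p or starred arm, and the open triangle of miR-139-3p (10.67) is a lower bound. The gap of miR-135a is 5.06, and that of miR-139 is at least 4.87 with 40 as the ceiling and -0.13 with the undetermined well at 35.

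The assays nearest in pattern to miR-139-5p were found by the root mean square distance of log2 levels over the 4 whole cell and 4 cytoplasmic samples, each assay centred on its own mean within a fraction. Among 151 named assays read in all 8, the 5 nearest were miR-22 (0.60), miR-135b (0.69), miR-200c (0.85), miR-193* (1.12) and miR-223 (1.27). miR-22 had whole cell CT values of 34.2, 32.3, 28.9 and 27.5 from LSK to granulocytes, with the same break between promyelocytes and myelocytes and a rise from LSK to promyelocytes that miR-139-5p did not show at that size. The whole cell CT of miR-135b went from 33.96 in LSK to 26.7 in granulocytes. That of miR-200c, known for its role in epithelial cells, went from 34.6 to 27.8, and that of miR-223 from 23.98 to 16.4. Except for miR-223 these assays had a CT above 30 in LSK and promyelocytes in both fractions, and miR-193* stayed above 30 in all 8 samples. With whole cell samples alone, 2 of the 5, miR-22 and miR-135b, stayed among the 5 nearest.

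**Figure D5:**
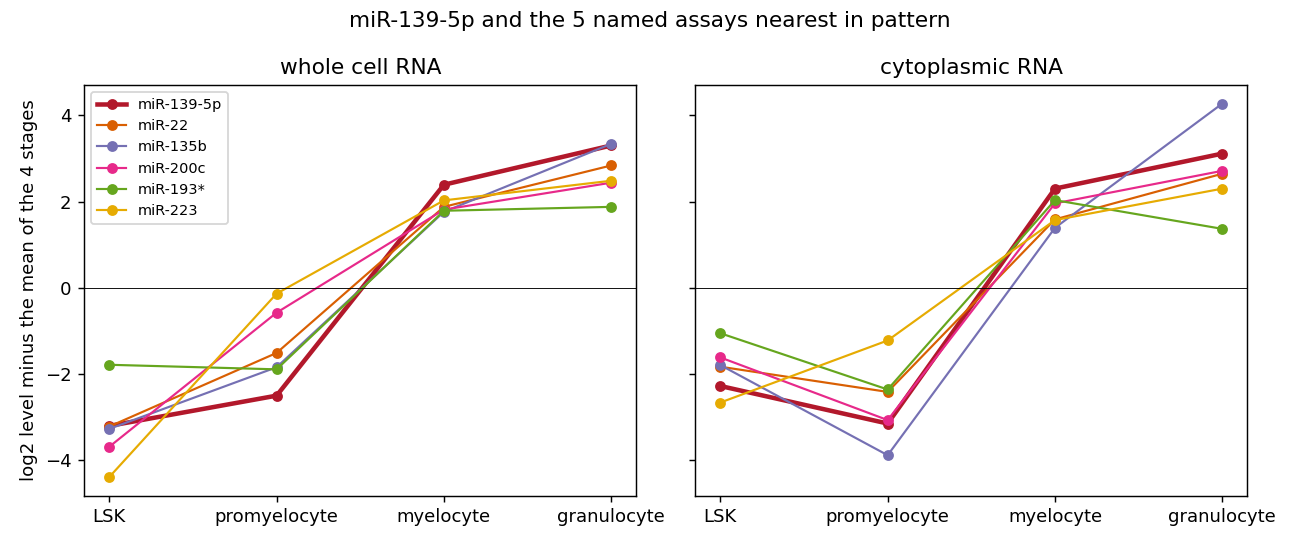
Log2 level of miR-139-5p (thick red line) and the 5 named assays nearest to it in pattern, by stage in whole cell and cytoplasmic RNA, each minus its own mean over the 4 stages of the fraction, 1 sample per point. miR-22, at a distance of 0.60, runs closest, while miR-223, at 1.27, is lower in LSK and higher in promyelocytes than miR-139-5p.

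For miR-139-3p, the nearest of 106 named assays with an undetermined well in at least 1 of the 8 samples was miR-147, at a distance of 1.196. miR-147, which is known to be induced by Toll-like receptor signals in macrophages, was undetermined in LSK and promyelocytes in both fractions. Its CT was 32.2 in myelocytes and 31.97 in granulocytes in whole cell RNA and 31.9 and 31.8 in the cytoplasm. The next were miR-135a (2.69), miR-22* (3.06), miR-744* (3.09) and miR-486 (3.14), all at more than double the distance. Undetermined in LSK and promyelocytes and read in myelocytes and granulocytes were 8 of the 269 named assays in whole cell RNA and 3 in the cytoplasm. miR-139-3p and miR-147 were the only ones in both, and miR-139-3p the only one to reach a CT under 30. This pattern was counted after the values of the arm were seen.

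The stages were checked against miRNAs known from blood cells. The 3 granulocytic miRNAs were all 2-fold or more higher in granulocytes than in promyelocytes in whole cell RNA, with 2.62 for miR-223, 1.89 for miR-142-3p and 1.78 for miR-142-5p, where 50.4% of all 129 assays were higher. Of 5 stem and progenitor miRNAs, 3 were 2-fold or more lower, with -3.18 for miR-155, -2.90 for miR-130a and -1.57 for miR-125b-5p, and none was higher, where 22.5% of all were lower. The others differed by -0.32 for miR-126-3p and 0.24 for miR-125a-5p. Granulocytes against LSK, the contrast that holds the stem population, gave values from -3.36 for miR-126-3p to -6.04 for miR-125a-5p over the 5. The median over the 129 assays was 1.30 there. Of 3 lymphoid miRNAs, 1 was 2-fold or more higher in whole cell RNA and 2 in the cytoplasm, where 52.3% of all were. In whole cell RNA miR-150 was 2.51 higher, while the differences of miR-181a and miR-342-3p were -1.04 and 0.70. The whole cell CT of miR-150, 25.1, 28.8, 25.6 and 25.8 from LSK to granulocytes, put its lowest level in the promyelocytes, and this list's part in the rise of the arms was not tested. The erythroid miR-451 and miR-144 were not among the named assays. In bulk RNA of equal mass, a change in the share of cells cannot be told apart from a change of level per cell.

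A list of 21 granulocyte-linked miRNAs, drawn up for this comparison with results of these samples known and with miR-139 left out by construction, shows the size of other rises. Of its 19 members that passed the same CT limit in whole cell RNA, 16 were 2-fold or more higher in granulocytes than in promyelocytes and none was lower, beside 50.4% and 22.5% of all 129 assays. Since the list was chosen with these samples in view, its direction is not independent evidence. Its median was 1.97, against 1.004 over all 129 assays, and its largest value was 3.49, for miR-194. At the step to myelocytes the whole cell values of miR-223, miR-16 and miR-26b were 2.16, 1.998 and 2.48, and that of miR-139-5p was 4.89.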

How the data were processed

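The authors deposited raw CT values, in PCR cycles, of 593 numbered assays in 12 samples, called with SDS 2.3 and RQ Manager and not normalized. Undetermined wells are at 40. Each assay had 1 well per sample, so precision is unknown. Stages were compared without a test, since each fraction holds 1 sample of a stage.

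Assays were named by a unique match of their 8 cytoplasmic and nuclear CT to CT printed by the study (within 0.0005), otherwise of whole cell differences (within 0.002), which are in log base 1.5. This named 269 assays, 246 and 23 by these routes, with 0 conflicts. miR-139-5p was named by whole cell differences (error 0.00057, next assay 1.26) and miR-139-3p by CT.

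Nuclear:cytoplasmic ratios were divided by 3, the factor found from the ratios printed by the study, which compared the fractions on cell equivalent volumes; whether the factor stands for this is not given in the sources used here. Between 259 and 288 assays were under 40 in whole cell, 263 and 294 in cytoplasmic and 199 and 229 in nuclear RNA. The arms, lists, nearest assays and hairpins named were chosen with earlier results of these data known. Assays singled out are the arms, the 5 nearest to each, those with a larger rise, arm pairs and marker lists, and a few others chosen after their values were seen. The procedure was tested on simulated data. Python 3.11.15, numpy 2.4.6, pandas 2.3.3, matplotlib 3.10.9 and RNAfold 2.7.2 were used. The mRNA arrays were not analysed here.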

Additional observations from a re-analysis of the deposited data

Results flagged for a closer look

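The direction of miR-139-5p between LSK and promyelocytes differed between fractions, with 0.70 in whole cell, -0.87 in cytoplasmic and 1.04 in nuclear RNA (promyelocyte against LSK, log2). The whole cell value exceeded the cytoplasmic one by 1.57, and the cytoplasmic minus the nuclear value was -1.91. miR-139-3p differed by 1.94 between granulocytes and myelocytes in whole cell RNA and by -0.05 in the cytoplasm, a gap of 1.99. With the cytoplasmic samples scaled like the whole cell ones, the cytoplasmic value was -1.64. Each value rests on 1 sample per stage and fraction, these differences between fractions were not tested, and whole cell values were scaled while the others were not.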

How the results depend on the processing

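The rise of both arms from promyelocytes to granulocytes kept its direction under all alternatives in whole cell and cytoplasmic RNA. Without scaling, the whole cell log2 change was 6.23 for miR-139-5p and at least 11.10 for miR-139-3p. With the mean of the named assays it was 5.30 and 10.17, and at 1.9-fold per cycle 5.37 and 9.88. In the cytoplasm the values were 2.99 and 7.12 with the last 3 assays as the scale, 5.15 and 9.28 with the named mean, and 5.79 and 9.62 at 1.9-fold per cycle. With undetermined wells at 35, miR-139-3p changed by 5.67 in whole cell and 5.38 in cytoplasmic RNA, and the difference between the arms turned to -0.13. Cytoplasmic miR-139-5p reversed from LSK to promyelocytes (main -0.87) to 0.98 with the last 3 assays and 0.30 with the named mean, and from myelocytes to granulocytes (main 0.81) to -0.78 with the last 3 assays. The cause of these reversals on scaling was not tested. Without the divisor the granulocyte nuclear:cytoplasmic ratio was 0.141 for miR-139-5p and at most 0.000748 for miR-139-3p. With the divisor kept and undetermined wells at 35, the bound for miR-139-3p was 0.00798. At a CT limit of 35, which admits more assays, 107 of 225 whole cell and 114 of 224 cytoplasmic assays were higher by 2-fold. At the limit of 30 they were 65 of 129 and 67 of 128. In the cytoplasm at that limit, 10 of 128 were higher with the last 3 assays as the scale and 42 of 128 with the named mean. Of the 5 assays nearest to miR-139-5p, 2 remained with whole cell samples only. No paired analysis was possible because the labels number no replicates and each stage and fraction has 1 sample. Readings past cycle 30 were taken as less reliable, and no replicate was measured to set against any difference.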
